A study of Mus musculus with 9 samples.

Results

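The unfolded protein response and its endoplasmic reticulum (ER) chaperones were followed through 32 mouse genes, given by symbol and matched to the Ensembl identifiers of the deposited count table. They are 32 of 55401 genes in the table and take up 33 of its rows, because Ddit3 has a second, nearly empty row that was not used. All 32 passed the filter on low counts. By textbook role, 12 were placed in the ATF6 arm, 11 in the IRE1 arm and 6 in the PERK arm, and 3 were kept as other folding factors. Several of these genes answer to more than 1 arm.

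The series title concerns the deubiquitinase JOSD2 and the calcium pump SERCA2a in cardiac hypertrophy. Heart tissue of inbred C57BL/6 mice gave 9 libraries of poly(A) RNA. The 3 Ctrl libraries are labelled as PBS hearts and the 3 AngII libraries as hearts given Ang II (angiotensin II, the pressor hormone of the renin system). The 3 Kmo_AngII libraries also carry the Ang II label and a further term, Kmo, that the labels do not explain; no allele, age, dose or duration is given. The letters that open the titles cut across these labels. WC titles belong to Ctrl 1, AngII 1 and AngII 2, and WA titles to Ctrl 2, Ctrl 3 and AngII 3, while KKA titles are the 3 Kmo_AngII libraries. Numbers only name a library. The meaning of WC, WA and KKA is not given either, so both groupings are described below. Whether each library is a different animal is not stated, so the p-values speak for the spread of these samples alone, and that spread may be technical.

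Secretory and membrane proteins fold in the ER with the help of chaperones such as BiP, the product of Hspa5. When unfolded proteins build up, BiP leaves the sensors ATF6, IRE1 and PERK. Cleaved ATF6 enters the nucleus and drives chaperone genes, IRE1 splices Xbp1 mRNA into the form that encodes an active transcription factor, and PERK phosphorylates eIF2alpha, which slows translation and favours ATF4. In cardiac muscle cells the same compartment, as the sarcoplasmic reticulum, stores the calcium that drives contraction. Gene counts show neither Xbp1 splicing nor cleavage of ATF6 nor phosphorylation, so what follows concerns mRNA levels alone.

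Active ATF6 binds the ER stress response element (ERSE) of chaperone promoters together with NF-Y. The element was searched as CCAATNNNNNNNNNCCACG on both strands of the 250 bases before each RefSeq gene start (GRCm38.p6; the files' build is mm8, and positions refer to GRCm38.p6 only). A promoter was found for 27 of the 32 symbols, and 9 of these 27 held an ERSE. Among all 32851 RefSeq promoters there were 37 with one, a share of 0.1126%. The windows below show the element in capitals with its flanks, on the gene's own strand. The first 5 belong to genes that differ between WA and WC further below, Derl3 and Syvn1 hold the element but were not called, and Herpud1 holds the shorter ERSE-II, ATTGGNCCACG, found in 0.0304% of promoters. An element read from the other strand appears as its reverse complement.
Hspa5: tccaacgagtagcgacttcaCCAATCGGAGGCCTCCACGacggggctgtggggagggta
Hsp90b1: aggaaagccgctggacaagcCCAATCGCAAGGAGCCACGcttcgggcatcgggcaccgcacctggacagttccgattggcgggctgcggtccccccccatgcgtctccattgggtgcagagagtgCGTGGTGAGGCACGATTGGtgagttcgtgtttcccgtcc
Pdia6: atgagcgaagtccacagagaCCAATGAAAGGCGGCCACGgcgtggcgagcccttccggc
Creld2: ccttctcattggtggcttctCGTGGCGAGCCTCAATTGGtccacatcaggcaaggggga
Dnajc3: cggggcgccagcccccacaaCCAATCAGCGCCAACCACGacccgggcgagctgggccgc
Derl3: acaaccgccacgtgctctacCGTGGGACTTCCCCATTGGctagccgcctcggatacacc
Syvn1: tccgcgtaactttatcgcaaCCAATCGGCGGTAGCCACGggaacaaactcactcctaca
Herpud1: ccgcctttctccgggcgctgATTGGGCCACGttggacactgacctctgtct
The Hspa5 window lies at chr2:34772005-34772063 (plus strand), that of Hsp90b1, which holds 2 elements, at chr10:86705513-86705676 (minus strand), and that of Pdia6 at chr12:17266471-17266529 (plus strand). Creld2 is shown at chr15:88819500-88819558, Dnajc3 at chr14:118937807-118937865, Derl3 at chr10:75893222-75893280, Syvn1 at chr19:6046512-6046570 and Herpud1 at chr8:94386357-94386407, all on the plus strand. Calr and Canx held an ERSE too. The UPRE letters TGACGTGG were in the promoter of 0 members and in 0.5631% of all promoters, and the ATF4-type letters TGATGCAA in that of Herpud1 and in 0.7915%. A match describes letters and is not evidence of binding.

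Library totals ran from 56827533 to 73194268 counts, and the members took 0.097% to 0.2502% of them. Exons of 12 members, among them Ddit3, Manf, Hsp90b1, Derl2, Eif2ak3 and Ppp1r15b, overlap another gene model in part, and whether counting used strand is not stated, so reads of neighbours may be included there. Mitochondrially encoded genes took 30.3% to 55.5%, and the scaling factors that correct for such differences in composition (TMM) ran from 0.681 to 1.36. Cardiomyocyte markers were abundant in every library, with summed levels of 18071 to 50834 CPM (counts scaled to the TMM library size). Acta1, skeletal actin, stood at 617 to 686 CPM in Ctrl 2, Ctrl 3, AngII 3 and Kmo_AngII 1 and at 11.3 to 39.6 CPM in the other 5 libraries.

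Chaperones were the most abundant members for their length. As mean CPM per kilobase of exon over the 9 libraries, Calr, a calcium-binding lectin chaperone, stood at 50.1, Hsp90b1, the ER HSP90, at 44.1 and Hspa5 at 43.6. The disulfide isomerases Pdia3 and P4hb followed at 34.5 and 30.5, and Herpud1, a membrane protein of ER-associated degradation, at 31.8. Among transcription factors, Atf4 stood at 20.1, Xbp1 at 15.6 and Ddit3, which encodes CHOP, at 14.2 CPM per kilobase. The sensors were low, with Atf6 at 4.39, Eif2ak3 (PERK) at 1.60 and Ern1 (IRE1) at 1.01. Derl3, a degradation factor, was lowest at 0.286, with only 20 to 135 counts in each library.

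The members varied unequally from library to library. The highest library stood 7.76 times above the lowest for Sdf2l1, a chaperone cofactor, 6.17 times for Derl3, 4.05 times for Atf6 and 3.93 times for Hspa5. For Sel1l, the adaptor of the HRD1 ubiquitin ligase, this ratio was 1.19, and for Ppp1r15b, a constitutive eIF2alpha phosphatase subunit, 1.46. Ern1, Xbp1 and Atf4 lay between 1.62 and 1.73.

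**Figure D1:**
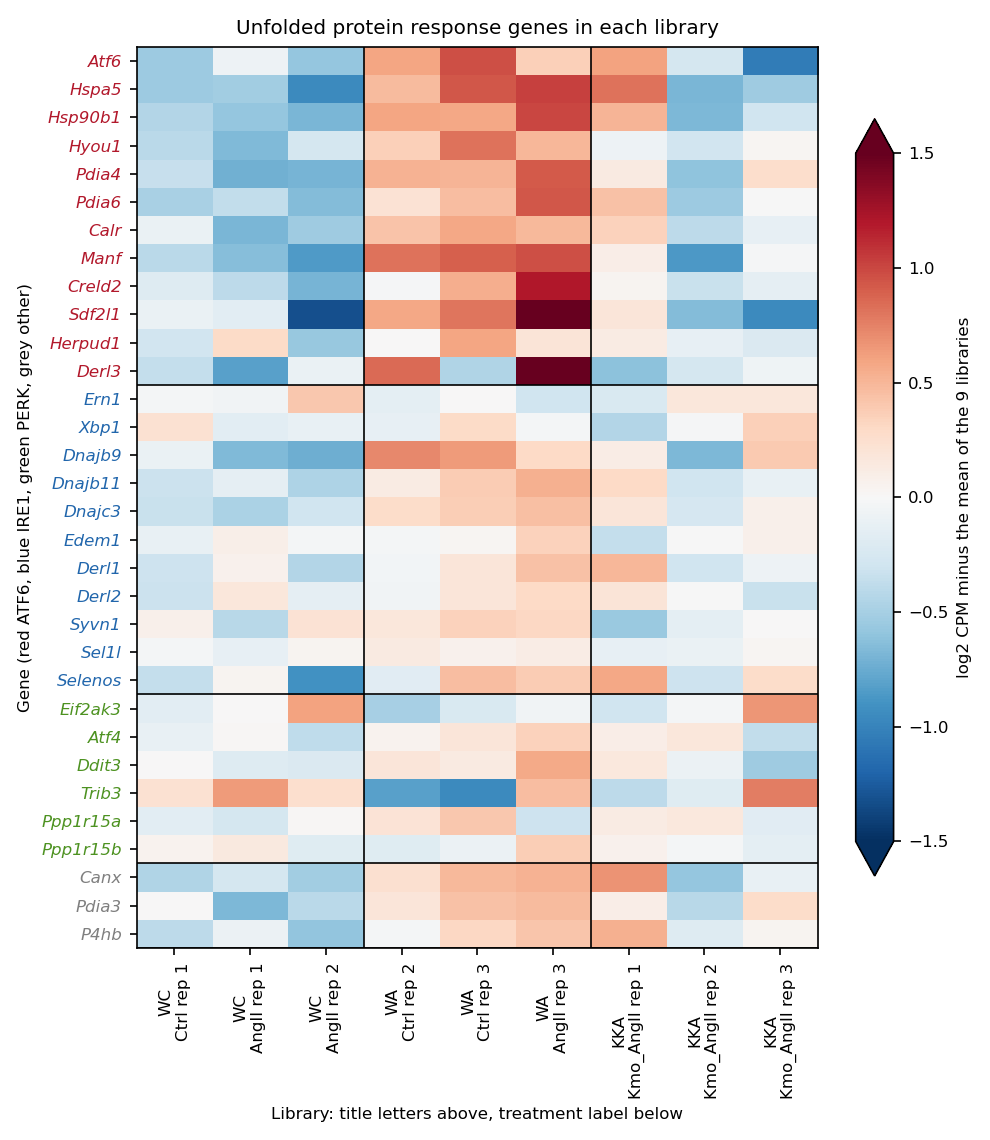
Level of each of the 32 genes (rows, coloured by arm) in the 9 libraries (columns, by title letters and treatment label), as log2 CPM minus the gene's mean over the 9 libraries; red is above and blue below that mean. Most ATF6 arm rows are red in the 3 WA columns and in Kmo_AngII 1 and blue in the 3 WC columns. PERK arm rows follow no common order: Atf4 and Ddit3 are higher in every WA than in every WC column, and the others overlap.

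Comparing AngII with Ctrl asks how these genes stood in hearts labelled Ang II against hearts labelled PBS. Acta1, a marker of hypertrophy, was high in 2 of the 3 libraries labelled Ctrl and in 1 of the 3 labelled AngII, so it did not follow these labels. Whether each label gives the treatment was not tested, and every AngII minus Ctrl value holds only for the libraries as labelled. In the fit of 9 libraries, no member passed the adjusted threshold (edgeR quasi-likelihood test, Benjamini-Hochberg adjustment over 19091 genes, adjusted p below 0.05), and the percentage of all genes called was 0. At an unadjusted p below 0.05, 0 of 32 members and 5.25% of all genes passed. The DESeq2 Wald test also called 0 members in this comparison, and only 8 of all genes. The median log2 difference of the members was -0.07, against 0.02 for all genes, and 11 of 32 were positive. When library size alone was used for scaling, 31 of 32 were positive, with medians of 0.60 for the members and 0.67 for all genes. The sign of the members' median also turned with the title letters as a covariate (0.09, 22 of 32 positive) and without AngII 2 (0.10, 20 of 32), AngII 1 (0.03) or Ctrl 3 (0.06), and without AngII 3 it was -0.38 (6 of 32). In such bulk tissue, fewer cells of a type and less RNA per cell cannot be told apart.

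Among the index genes of the arms, Hspa5 stood at 110.5, 224 and 308 CPM in Ctrl 1 to 3 and at 113, 83.5 and 328 CPM in AngII 1 to 3. Both groups hold low and high libraries, and the Ctrl range lies within the AngII range. The log2 difference was -0.29 ± 0.60 (SE, n = 3 and 3; edgeR adjusted p = 0.964). Under the same label, the WA libraries were above the WC libraries: 224 and 308 against 110.5 CPM within Ctrl, and 328 against 113 and 83.5 CPM within AngII.

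Xbp1 stood at 58.9, 46.1 and 60.9 CPM in Ctrl 1 to 3 and at 44.7, 46.2 and 49.2 CPM in AngII 1 to 3, a log2 difference of -0.24 ± 0.24 (edgeR adjusted p = 0.921). The groups overlapped narrowly, through Ctrl 2. Atf4, the transcription factor downstream of PERK, had means of 48.4 ± 4.79 (SD, n = 3) and 47.5 ± 11.7 CPM in Ctrl and AngII, and its log2 difference was -0.03 ± 0.24 (edgeR adjusted p = 0.993). Ddit3 had 25.6 ± 1.59 and 25.4 ± 8.41 CPM, a difference of -0.01 ± 0.26 (edgeR adjusted p = 0.997).

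The smallest p-values of this comparison belonged to Trib3, a pseudokinase induced by ATF4 and CHOP, and Dnajb9, a BiP cochaperone and XBP1 target. Trib3 stood at 3.28, 1.60 and 1.44 CPM in Ctrl 1 to 3 and at 4.36, 3.33 and 3.87 CPM in AngII 1 to 3. All AngII libraries were above all Ctrl libraries, with Ctrl 1 just under AngII 2. Its log2 difference was 0.87 ± 0.42, and that of Dnajb9 -0.74 ± 0.37 (edgeR adjusted p = 0.890 for both). Eif2ak3 was the other member with all AngII above all Ctrl libraries, at 9.31, 14.2 and 8.96 against 8.34, 6.61 and 7.92 CPM. That makes 2 of 32 members, against 6.44% of all genes, and 0 members, against 5.74% of all genes, had all AngII below all Ctrl libraries.

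The Kmo_AngII libraries were set against AngII, where the labels differ by the Kmo term, and against Ctrl, where the Ang II label differs too. The Kmo term coincides with the KKA title letters and cannot be told apart from them. These comparisons share libraries with each other and with the one above. Neither called a member with edgeR or DESeq2, and the percentage of genes called by edgeR was 0 in each. DESeq2 called 3 of all genes for Kmo_AngII minus AngII and 9 for Kmo_AngII minus Ctrl. At an unadjusted p below 0.05, 0 of 32 members passed in both, against 2.16% of all genes for Kmo_AngII minus AngII and 2.79% for Kmo_AngII minus Ctrl. The members' medians were -0.07 and -0.13 on the log2 scale, with all genes at 0.03 and 0.05; scaled by library size alone they were -0.40 and 0.17, with all genes at -0.29 and 0.37. Without AngII 3 the median of Kmo_AngII minus AngII was 0.24, with 24 of 32 members positive, without Kmo_AngII 2 it was 0.04, and without AngII 2 it was -0.23. That of Kmo_AngII minus Ctrl was -0.29 without Ctrl 1, -0.28 without Kmo_AngII 1 and -0.02 without Ctrl 3.

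Hspa5 stood at 283, 100.04 and 111 CPM in Kmo_AngII 1 to 3, so Kmo_AngII 1 was near the high AngII library and the other two near the low ones. Its log2 difference from AngII was -0.08 ± 0.60 (edgeR adjusted p = 0.9998). Xbp1 differed by 0.11 ± 0.24, Atf4 by -0.04 ± 0.24 and Ddit3 by -0.22 ± 0.26 (edgeR adjusted p = 0.9998 for each). The smallest p-values belonged to Derl3 (-1.04 ± 0.70) and Sdf2l1 (-0.94 ± 0.65), for which AngII 3 was the highest of all libraries, at 1.67 and 7.72 CPM. Against Ctrl they belonged to Syvn1, the HRD1 ligase (-0.42 ± 0.24), and Eif2ak3 (0.46 ± 0.29), with edgeR adjusted p = 0.998. Syvn1 had all Kmo_AngII below all Ctrl libraries, at 17.4, 23.2 and 25.7 against 27.1, 28.9 and 32.7 CPM. It was 1 of 32 members to do so, against 2.64% of all genes, a share near the background.

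**Figure D2:**
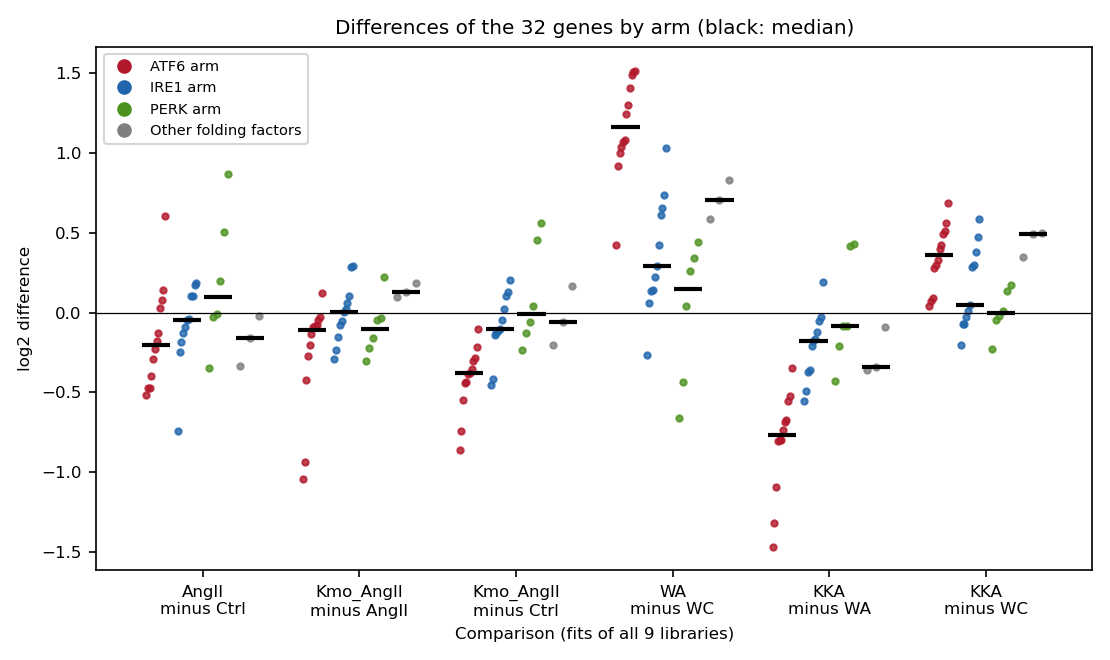
Fitted log2 differences of the 32 genes (points, coloured by arm; black bars are arm medians) in the 6 comparisons of the 9-library fits. The ATF6 arm is centred at 1.16 for WA minus WC and at -0.77 for KKA minus WA, and the 3 comparisons of treatment labels lie nearer to 0; the comparisons share libraries.

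Arranged by title letters, most ATF6 arm genes were higher in WA than in WC. In a fit of the 6 WA and WC libraries, 15 of 32 members were higher in WA and 0 lower, against 8.06% of 18111 genes higher, 5.25% lower and 13.3% in either direction (edgeR quasi-likelihood test, adjusted p below 0.05). By arm, 10 of 12 ATF6 arm genes, 3 of 11 IRE1 arm genes, 0 of 6 PERK arm genes and 2 of 3 other folding factors were called. Median log2 differences were 1.18, 0.31, 0.16 and 0.72, and 0.65 over all members, while all genes had a median of -0.01. All 3 WA libraries were above all 3 WC libraries for 19 of 32 members, against 17.1% of all genes. Each of these groups holds both Ctrl and AngII libraries. The fit of 6 libraries was chosen with earlier results known, because the spread was smaller without the KKA libraries.

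Among the chaperones, Hspa5 stood at 110.5, 113 and 83.5 CPM in the WC libraries (Ctrl 1, AngII 1, AngII 2) and at 224, 308 and 328 CPM in the WA libraries (Ctrl 2, Ctrl 3, AngII 3). The lowest WA library was above the highest WC library, whichever treatment label each carried. The difference was 1.50 ± 0.22 on the log2 scale, or 2.83-fold (edgeR adjusted p = 0.0039).

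Hsp90b1, whose product folds receptors and other secreted clients, stood at 119, 108 and 101 CPM in WC and at 244, 241 and 324 CPM in WA. The groups did not overlap, and the difference was 1.32 ± 0.20 (edgeR adjusted p = 0.0041). Manf encodes a secreted survival factor kept in the ER by BiP. It stood at 16.8, 14.3 and 12.4 CPM in WC and at 39.2, 41.5 and 43.6 CPM in WA. It had the smallest p of the members, with a log2 difference of 1.53 ± 0.17, or 2.89-fold (edgeR adjusted p = 0.0014).

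Folding enzymes followed the same order. Pdia4, a disulfide isomerase, stood at 14.1, 10.9 and 11.03 CPM in WC and at 25.8, 25.6 and 34.0 CPM in WA, a log2 difference of 1.26 ± 0.19 (edgeR adjusted p = 0.0040). Pdia6, another isomerase, stood at 25.9, 28.3 and 23.2 against 42.2, 50.3 and 69.6 CPM (1.08 ± 0.20, edgeR adjusted p = 0.0078). Hyou1, the nucleotide exchange factor of BiP, stood at 17.5, 14.6 and 19.3 against 29.5, 40.5 and 32.6 CPM (1.01 ± 0.18, edgeR adjusted p = 0.0067). For none of these enzymes did a WC library reach the lowest WA library.

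The sensor gene Atf6 was itself among the called genes. It stood at 25.4, 35.1 and 24.7 CPM in WC and at 55.5, 72.0 and 47.1 CPM in WA, with a log2 difference of 1.05 ± 0.21 (edgeR adjusted p = 0.0099). Calr (0.93), Creld2 (1.09) and Sdf2l1 (1.52 on the log2 scale) completed the called ATF6 arm genes. The other two did not pass: Herpud1 differed by 0.43 ± 0.24 (edgeR adjusted p = 0.253) and Derl3 by 1.43 ± 0.59 (edgeR adjusted p = 0.130), with 36 and 20 counts in Ctrl 2 and 3 against 135 in AngII 3.

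**Figure D3:**
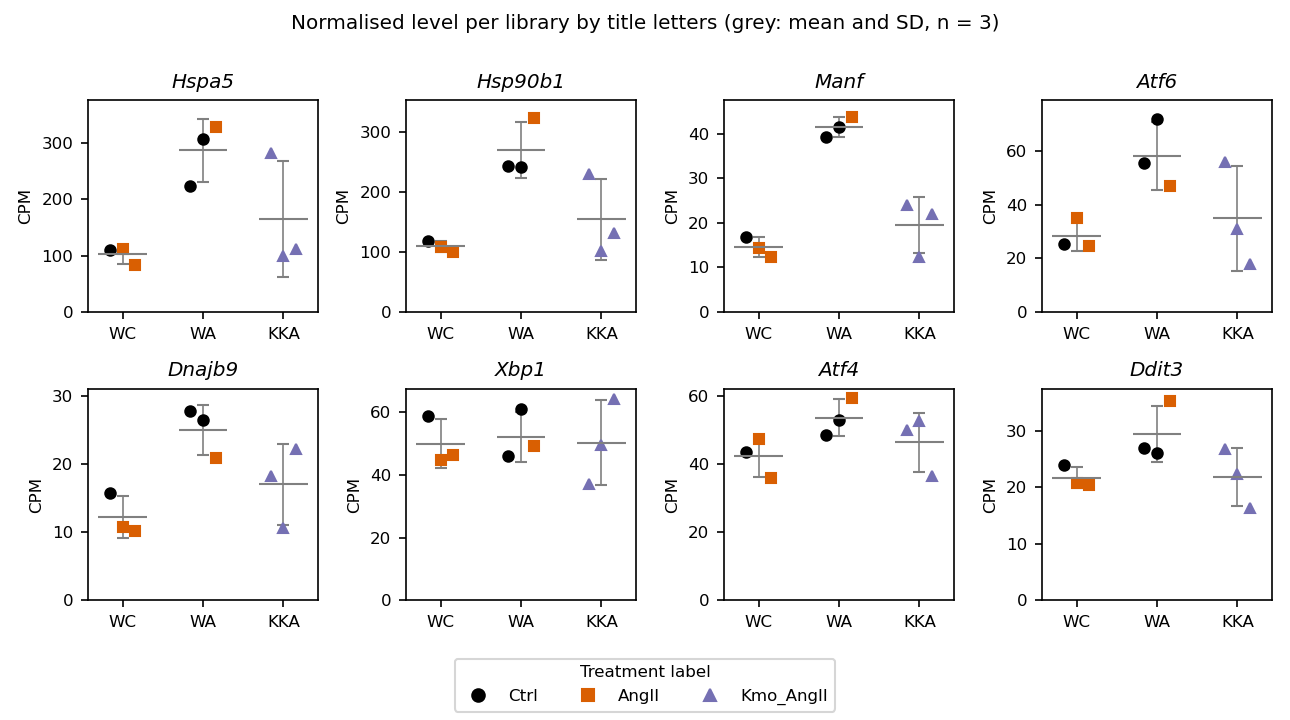
CPM of 8 genes in each library, arranged by title letters, with symbols for the treatment label and grey bars for the mean and SD of 3 libraries. Hspa5, Hsp90b1, Manf, Atf6 and Dnajb9 show no overlap between WC and WA. Atf4 and Ddit3 show none either, with narrower gaps, and Xbp1 overlaps. The KKA libraries are spread, with Kmo_AngII 1 at 283 CPM for Hspa5 and the others at 100.04 and 111.

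In the IRE1 arm the called genes were 3 DnaJ cochaperones of BiP. Dnajb9 stood at 15.8, 10.7 and 10.2 CPM in WC and at 27.8, 26.4 and 20.9 CPM in WA (log2 1.05 ± 0.21, edgeR adjusted p = 0.0099). Dnajc3, also called P58IPK, and Dnajb11 differed by 0.75 and 0.67 on the log2 scale. Xbp1 itself did not follow, at 58.9, 44.7 and 46.2 CPM in WC and 46.1, 60.9 and 49.2 CPM in WA. Its groups overlapped, and the log2 difference was 0.07 ± 0.18 (edgeR adjusted p = 0.825). Ern1 stood at -0.25 ± 0.20 (edgeR adjusted p = 0.440).

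The degradation genes of this arm were also not called. Edem1, which hands misfolded glycoproteins to degradation, differed by 0.15, the channel components Derl1 and Derl2 by 0.43 and 0.24, and Syvn1 and Sel1l by 0.31 and 0.15 on the log2 scale. Selenos, a selenoprotein of the same complex, differed by 0.62 ± 0.26 (edgeR adjusted p = 0.130). Sel1l had a narrow gap without overlap, at 35.9 to 40.3 CPM in WC and 40.7 to 42.8 CPM in WA.

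None of the PERK arm genes passed in the fit of 6 libraries with edgeR or DESeq2. At an unadjusted p below 0.05 in edgeR 1 of 6 did, Ddit3, against 29.7% of all genes. Without AngII 3, Trib3 was called lower in WA, in a setting where 2980 of all genes were called in either direction. Atf4 stood at 43.5, 47.4 and 35.8 CPM in WC and at 48.5, 53.1 and 59.3 CPM in WA, without overlap, and its log2 difference was 0.36 ± 0.17 (edgeR adjusted p = 0.188). Ddit3 stood at 23.9, 20.7 and 20.4 against 27.0, 26.0 and 35.1 CPM, also without overlap (0.45 ± 0.17, edgeR adjusted p = 0.106). Eif2ak3 and Trib3 had the opposite sign, at -0.42 ± 0.23 and -0.64 ± 0.37. The phosphatase subunits Ppp1r15a, the stress-induced GADD34, and Ppp1r15b differed by 0.27 and 0.05.

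Of the other folding factors, Canx, the membrane-bound lectin chaperone calnexin, differed by 0.84 and Pdia3, its partner isomerase, by 0.72 on the log2 scale, and both were called. P4hb, protein disulfide isomerase and a subunit of collagen prolyl hydroxylase, differed by 0.60 ± 0.20 (edgeR adjusted p = 0.0638). Its WA libraries, at 83.3, 105 and 113 CPM, were above its WC libraries, at 64.5, 79.5 and 56.3 CPM.

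**Figure D4:**
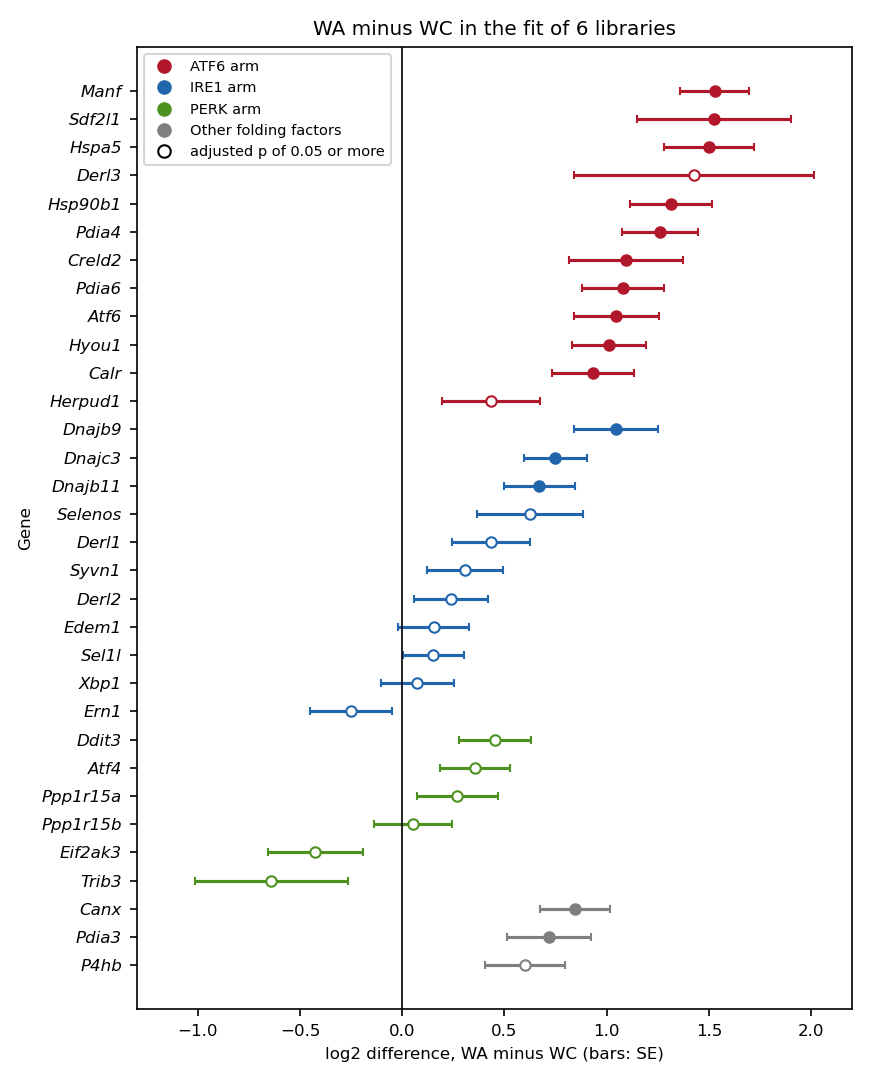
Log2 difference (WA minus WC, bars are SE) of the 32 genes in the fit of 6 libraries, ordered within arms; filled points have an adjusted p below 0.05. Filled points are 10 of 12 in the ATF6 arm, 3 of 11 in the IRE1 arm, 0 of 6 in the PERK arm and 2 of 3 among the other folding factors.

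The number of calls depended on libraries and scaling, for the members and for all genes. Leaving out AngII 2 left 5 called members (459 of all genes, in place of 2409), leaving out Ctrl 3 left 6 (524 of all genes), and leaving out AngII 1 gave 17 (2434 of all genes). Hspa5, Hsp90b1, Hyou1, Pdia4 and Manf were called without each of the 6 libraries in turn. When library size alone was used for scaling, 0 members passed the adjusted threshold and 7 an unadjusted p below 0.05 (232 of all genes were called), and the members' median was 0.35 against -0.32 for all genes, with 23 of 32 members positive in place of 29. With the treatment label as a covariate 14 members and 1946 of all genes were called, and with DESeq2 16 members and 3437 genes.

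The fit of all 9 libraries called 0 members in WA minus WC, and 0% of genes, with nearly the same differences. Manf differed by 1.52 ± 0.25 (edgeR adjusted p = 0.157) and Hyou1 by 0.999 ± 0.20 (edgeR adjusted p = 0.200). At an unadjusted p below 0.05, 17 of 32 members and 18.0% of all genes passed. The common dispersion was 0.156 over 9 libraries and 0.0880 over 6. Without Kmo_AngII 1, the same fit called 14 members and 1576 of all genes, and with all 9 libraries DESeq2 called 11 members and 514 genes.

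For the 12 ATF6 arm genes the KKA mean lay between those of WC and WA, and the 3 libraries were uneven. Over the 32 members, Kmo_AngII 1 was above the highest WC library for 22, Kmo_AngII 3 for 17 and Kmo_AngII 2 for 3, where the shares of all genes were 34.8%, 31.3% and 22.9%. Below the lowest WC library stood 6, 3 and 3 members in the same order, against 33.8%, 30% and 22.5% of all genes. At or above the lowest WA library were 18, 12 and 10 members, against 80.1%, 68.8% and 69.3% of all genes. Summed over the ATF6 arm, the levels were 949, 480 and 563 CPM in Kmo_AngII 1 to 3, against 426 to 528 CPM in WC and 931 to 1185 CPM in WA.

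In edgeR, KKA minus WA and KKA minus WC called 0 members and 0% of genes. DESeq2 called 1 member, Manf, and 91 of all genes in the first, and 0 members and 25 genes in the second. Unadjusted p-values were below 0.05 for 8 of 32 members in KKA minus WA, against 7.05% of genes, and for 1 of 32 in KKA minus WC, against 3.51%. All KKA libraries were below all WA libraries for 9 of 32 members, against 2.52% of genes: Manf, Hyou1, Hsp90b1, Pdia4, Calr, Sdf2l1, Dnajc3, Syvn1 and Sel1l. Manf stood at 23.9, 12.2 and 22.1 CPM in KKA, and its log2 difference from WA was -1.09 ± 0.25 (edgeR adjusted p = 0.626). Hyou1 differed by -0.67 ± 0.20 (edgeR adjusted p = 0.649). From WC, Pdia4 differed by 0.56 ± 0.25 and Dnajc3 by 0.38 ± 0.18 (edgeR adjusted p = 0.995 for both). Dnajc3 was the one member with all KKA above all WC libraries, against 3.66% of genes.

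The promoter letters were set beside the WA minus WC differences. Of the 9 members with an ERSE, 7 were higher in WA and their median log2 difference was 1.08. Most of these 9 members (Calr, Creld2, Derl3, Hsp90b1, Hspa5 and Pdia6) belong to the ATF6 arm. The split by ERSE is therefore not independent of the split by arm. Of the 18 with a promoter and no ERSE, 5 were higher, with a median of 0.40. Pdia4 and Dnajb9, both called, were among these 18. Atf6, Hyou1, Manf, Derl1 and Ppp1r15b had no window in the table. Of the other 26 symbols with an ERSE, 10 were tested: 0 were higher, 1 was lower (Pan2, a deadenylase subunit, -0.76), and their median was -0.41. Over 12244 tested genes with a promoter, 9.0% were higher in WA.

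The wider pathway gave 17 of 95 tested genes higher and 0 lower in WA, in the same fit, where 8.06% of all genes were higher and 5.25% lower. The translocon and N-glycosylation list had 6 of 21 higher, including Spcs3 (1.09), a signal peptidase subunit, Ssr3 (0.83) of the translocon-associated complex and Rpn1 (0.62) of the oligosaccharyltransferase. Further ER-associated degradation genes had 5 of 18, among them Vcp (0.99), the ATPase that extracts substrates. The list of ATF4 targets and eIF2alpha kinases also holds Eif2s1, the gene of eIF2alpha itself, which is neither. In this list 4 of 30 were higher: Atf3 (1.85), Eif2s1 (0.92), Nars (0.66) and Pycr1 (2.47, from 0.117 to 0.638 CPM). The kinases Eif2ak1, Eif2ak2 and Eif2ak4 were not called, at 0.18, -0.49 and -0.38. Asns and Chac1, both ATF4 targets, stood at 0.08 and -0.09. Other folding enzymes gave 1 of 19, the collagen chaperone Serpinh1 (0.95), and the ATF6 processing and CREB3 list 1 of 7, Creb3l2 (0.81), while the proteases that cleave ATF6, Mbtps1 and Mbtps2, stood at -0.24 and -0.13. The 1 of 19 was below the share of all genes called higher, and the 1 of 7 rests on a single gene.

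Markers of hypertrophy and of several cell types also differed between WA and WC in this fit. Acta1 differed by 5.63, Nppa by 3.30 and Nppb by 3.35 on the log2 scale in WA minus WC. In the list, 5 of 6 hypertrophy markers were called higher, and their sum ran from 3905 to 5762 CPM in WA and from 918 to 1339 CPM in WC. Cardiomyocyte markers (4 of 10 higher) summed to 40805 to 50834 CPM in WA and to 26194 to 31035 CPM in WC. Fibroblast markers summed to 623 to 861 CPM in WA and to 463 to 698 CPM in WC, with overlap. Of these, 4 of 7 were higher (Col1a2, Col3a1, Postn and Lum), while Col1a1 (0.72), Dcn (0.06) and Pdgfra (-0.17) were not called. Red cell markers (5 of 5 lower) ran from 116 to 490 CPM in WA and from 2944 to 7318 CPM in WC. B and plasma cell markers (1 of 8 lower), from a lineage rich in ER, ran from 11.2 to 17.8 CPM in WA and from 17.0 to 34.2 CPM in WC, with overlap, and neutrophil markers (2 of 5 tested lower, 1 of 6 listed at 0 in some libraries) from 9.37 to 15.1 and from 38.8 to 186 CPM. Macrophage markers (2 of 8 lower, Csf1r and Cd163) ran from 101 to 128 and from 128 to 159 CPM, with overlap, and epicardial markers (1 of 6 lower, Wt1) from 8.40 to 11.5 and from 15.9 to 18.5 CPM. The atrial list, which shares Nppa with the hypertrophy list, was uneven within WA. As mean log2 level relative to each gene's mean over the 9 libraries, it stood at 3.93 in Ctrl 2. It stood at -1.19 in Ctrl 3, -2.30 in AngII 3 and -1.92 to -1.55 in WC. Endothelial markers (0 of 6 called, all with a negative difference) ran from 723 to 897 CPM in WA and from 959 to 974 CPM in WC. The part of all these markers in the members' differences was not tested. Kmo_AngII 3 stood apart in several lists: it had the lowest cardiomyocyte sum of the 9 libraries (18071 CPM) and the highest fibroblast (1942 CPM), epicardial (86.1 CPM), atrial (2244 CPM), macrophage (257 CPM) and B and plasma cell (60.6 CPM) sums. Among the members its Atf6, Derl2 and Ddit3 levels were the lowest of the 9 libraries and its Xbp1, Eif2ak3 and Trib3 levels the highest.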

How the data were processed

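The members and the lists beside them were chosen with earlier results of these data known. The authors deposited 1 table of whole-number counts per Ensembl gene and library, per the file headers. Bowtie 0.12.2, HISAT2 2.0 and StringTie 1.3.0 are named with build mm8, per the submitters' processing notes, without roles; annotation, counting step and strandedness: not given in the sources used here, and a coverage-based count would be only close to a read count. Per the labels' protocols, RNA was extracted with Trizol, poly(A)-selected and sequenced in pairs; the protocol also mentions an adipose type, although every source is heart. Symbols matched 55141 of 55401 genes. Where 2 rows share a symbol the one with more counts was used.

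Groups followed the treatment label or the title letters, 3 libraries each, in edgeR 4.0.16 (R 4.3.3) with limma 3.58.1: TMM scaling, filterByExpr, robust quasi-likelihood F test, Benjamini-Hochberg adjustment over all genes tested, threshold 0.05. One fit of 9 libraries per grouping gave 6 comparisons, and a fit of the WA and WC libraries gave the seventh. The latter was fitted apart because earlier results of these data had shown a smaller spread without the KKA libraries. The standard error was derived from the difference and its F statistic. CPM use TMM library sizes of the 9 libraries. Pairs of libraries gave a chi-square of at least 56.6 per degree of freedom over genes, far beyond counting noise, so each was counted once. Levels are given for all members; differences with tests for Hspa5, Xbp1, Atf4 and Ddit3, for up to 8 called members by p in each comparison, and for the 2 smallest p where none was called; other differences are summaries or were chosen for their role. Promoters are RefSeq windows of GRCm38.p6, and gene lengths are merged exons of GENCODE M21. Alternatives were the DESeq2 1.42.0 Wald test and size factors, scaling by library size alone, other filters, leaving out mitochondrial genes or 1 library, fitting only the groups compared, and a covariate for the other grouping. Simulated counts were also fitted, with a smaller dispersion than these libraries and no shift in composition between libraries. That easier setting cannot show how the fit performs on these data.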

Additional observations from a re-analysis of the deposited data

How the results depend on the processing

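The fits of 9 libraries called 0 members in each comparison, and exceptions arose in comparisons of title letters. For WA minus WC, the DESeq2 Wald test called 11 (514 of all genes). Leaving out 1 library gave 0 to 14, the highest without Kmo_AngII 1, where 1576 of all genes were called. Fitting only the 2 groups compared is here the fit of 6 libraries itself, with its 15 calls. For KKA minus WA, DESeq2 called 1 member and 91 of all genes. Leaving out 1 library gave 0 to 6 members, the highest without Kmo_AngII 1, where 1709 of all genes were called. In the fit of 6 libraries the main count of 15 (2409 of all genes) became 0 (232 of all genes) when library size alone was used for scaling. Leaving out 1 library gave 5 (without AngII 2, 459 of all genes) to 17 (without AngII 1, 2434), with 6 without Ctrl 3 (524). Without AngII 3, 11 were higher and 1, Trib3, lower, and 2980 of all genes were called. Among alternative values for single named genes, 28 changed sign and 420 kept both sign and side of the threshold. Another 14 kept the sign and were no longer called, and 8 kept the sign and became called. Scaling by library size alone moved the median of all genes to 0.67 in AngII minus Ctrl, and Hspa5, Xbp1, Atf4 and Ddit3 stood at 0.38, 0.39, 0.64 and 0.65; Xbp1 stood at -0.27 in Kmo_AngII minus AngII and at -0.22 in the fit of 6 libraries. With title letters as a covariate, AngII minus Ctrl gave 0.066 for Hspa5, 0.080 for Atf4 and 0.10 for Ddit3, and without a filter 0.013 for Ddit3. Leaving out 1 library gave, for AngII minus Ctrl, Hspa5 -1.13 to 0.066, Atf4 -0.22 to 0.14 and Ddit3 -0.32 to 0.13. For Kmo_AngII minus AngII it gave Hspa5 -0.73 to 0.75, Xbp1 -0.11 to 0.28, Atf4 -0.20 to 0.15, Ddit3 -0.39 to 0.084, Derl3 -1.46 to 0.11 and Sdf2l1 -1.39 to 0.23, and in the fit of 6 libraries Xbp1 -0.046 to 0.21. The cause was not tested. No paired analysis was possible because the labels carry no replicate numbers. Depth limits Derl3 most, with 20 to 135 counts per library.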
